A study of Caenorhabditis elegans with 4 samples.

Results

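The binding regions of NHR-12::GFP on chromosome X of Caenorhabditis elegans were taken as every entry on X in the 3 deposited lists of regions. There were 51 of 197 regions in the list that combines both ChIP replicates, 5000 of 25045 in the list of ChIP replicate 1 and 5810 of 30000 in the list of ChIP replicate 2. The series used chromatin immunoprecipitation and sequencing (ChIP-seq) with anti-GFP antibodies on whole L2 hermaphrodites grown at 20 °C, with 2 ChIP libraries and 2 input libraries. Regions of the inputs were not analysed here. The animals were of strain OP318, an unc-119(ed3) mutant with the integrated transgene wgIs318. This transgene carries nhr-12 with TY1, EGFP and FLAG tags beside unc-119(+), and was introduced by biolistic transformation, so ChIP and input share 1 transgenic line. The signal is that of the tagged protein in all tissues together, and no label states if separate cultures gave the replicates. Positions are on WormBase WS220, and scores are those of the authors' peak caller. Read counts are not part of the lists, and the depth behind each region is therefore unknown.

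NHR-12 belongs to the nuclear hormone receptors, zinc-finger transcription factors that bind short DNA elements and can be regulated by small lipophilic ligands. This family is much larger in C. elegans than in mammals, and most of its worm members have no assigned ligand. The X chromosome is present as a pair in hermaphrodites and as a single copy in males, and a dosage compensation complex lowers its transcription in hermaphrodites. It also holds many of the worm's tRNA genes, which RNA polymerase III transcribes from promoter elements inside the gene. Here 276 of the tRNA genes were on X and 336 on the 5 autosomes, in the RefSeq gene table of assembly WBcel235.

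That table is of a later build than the regions, which differs from WS220 by small insertions and deletions. No map between the builds was used, so the register of the regions and the genes was measured on the tRNA genes. For 67 of the 276 X tRNA genes the midpoint of the nearest replicate 1 region lay within 100 bp of the gene's midpoint, and for 12 it lay 400 to 500 bp away. In replicate 2 these numbers were 60 and 11. Among genes with a region within 300 bp, the region's midpoint minus the gene's midpoint had a median of 2.5 bp in replicate 1 (113 genes, quartiles -104 and 65 bp) and of -14 bp in replicate 2 (121 genes, quartiles -112 and 96 bp). With X divided into 3 equal lengths from left to right, the medians were 6, -36.25 and 3.75 bp in replicate 1 and -20, -49 and 25.25 bp in replicate 2. The window of 300 bp either way draws these medians toward 0, so they bound a shift less well than the counts by distance do. The same X regions and tRNA genes are counted again below, so the register and those counts are not independent of each other. The shift between the builds itself was not measured, and a gene is named below only where it stayed the nearest coding gene, within 1 kb, with the region moved by 200 bp either way.

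**Figure D1:**
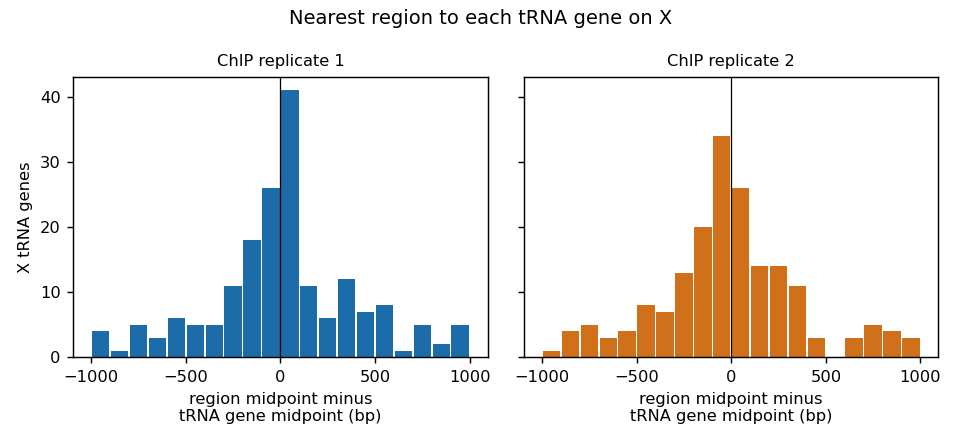
Number of X tRNA genes (vertical axis) by the distance in bp from the gene's midpoint to that of the nearest region (horizontal axis, bins of 100 bp), in ChIP replicate 1 on the left and ChIP replicate 2 on the right. Both distributions peak at 0, with 67 genes within 100 bp in replicate 1 and 60 in replicate 2.

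Combined regions lay at tRNA genes on X and at none of the autosomal ones. On X, 8 of 51 combined regions (15.7%, 95% exact binomial interval 7.02 to 28.6) overlapped a tRNA gene, against 0 of 146 on the autosomes, which allows a share of up to 2.05%. Over all nuclear chromosomes the share was 4.06%. X has more tRNA genes per length than the autosomes, and the share of regions follows that number too. Counted per gene, the combined list met 12 of 276 tRNA genes on X (4.35%, interval 2.27 to 7.47). On the autosomes it met 0 of 336, which allows up to 0.893%. Such intervals and limits hold counting error alone, and regions of 1 library are not independent samples. In place of the combined list, the first 197 nuclear regions by rank of replicate 1 alone had 8 X regions at tRNA genes and 1 of 151 autosomal ones. Those of replicate 2 alone had 5 X regions and 0 of 158 autosomal ones. For replicate 1 these 197 were taken by entry number among 344 nuclear regions of equal, highest score, so its counts depend on that order. The pattern was seen in the lists and then counted, and no test of it was made. tRNA genes occur in near-identical copies, and the sources used here do not say how reads that match several copies were placed, so the assignment of signal to single tRNA genes is uncertain. The part of read placement in the counts was not tested.

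These 8 regions covered 12 tRNA genes, with 4 regions at 1 gene and 4 at a pair. The first by rank in replicate 1, from 5801107 to 5801670, lay at F46G11.t1 and F46G11.t2. Its score was 2.86 at rank 26 in replicate 1 and 1.73 at rank 81 in replicate 2. All of the 8 but the region at C04E7.t1 had this highest score in replicate 1. It is shared by 344 nuclear regions, so the replicate 1 ranks among them follow entry number. The region from 3035828 to 3036391, at M02F4.t1 and M02F4.t2, ranked 29 in replicate 1 and 147 in replicate 2. Both were thus near the top of both lists. The region from 13046155 to 13046718, at C53C7.t1 and C53C7.t2, ranked 65 in replicate 1 and 668 in replicate 2. At R04A9.t1, from 410000 to 410563, the ranks were 94 and 223 in replicates 1 and 2. At C04A11.t1, from 13665231 to 13665794, they were 203 and 154. The other 3 ranked between 110 and 279 in replicate 2. The region at F15G9.t1 and F15G9.t2, from 9743264 to 9743827, ranked 228 in replicate 1 and 279 in replicate 2. At F41D9.t3, from 8404136 to 8404699, the ranks were 261 and 110. At C04E7.t1, from 353093 to 353656, they were 1147 (score 1.29) and 180. A ninth region, from 8036112 to 8036675, had C18A11.t2 within 1 kb and did not overlap it. The median rank of the 8 was 148.5 in replicate 1 and 167 in replicate 2, against 139 and 158.5 for the other combined X regions. Both replicate 1 medians fall among the 344 nuclear regions that share the highest score, so they do not order the 8 against the others. In replicate 2 the 8 stood neither at the top nor at the bottom of the combined X regions.

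The replicate lists met tRNA genes on every chromosome. In replicate 1, 126 of 5000 X regions (2.52%, interval 2.10 to 2.99) overlapped a tRNA gene, where the nuclear list as a whole gave 1.04% and the autosomes 0.674%. In replicate 2 it was 123 of 5810 (2.12%, interval 1.76 to 2.52), where the whole list gave 0.774% and the autosomes 0.451%. X has more tRNA genes per length than the autosomes, and these shares follow that number as well as the signal at each gene. Counted per gene, 120 of 276 X tRNA genes (43.5%, interval 37.5 to 49.6) met a region of replicate 1, against 121 of 336 autosomal ones (36.0%, 30.9 to 41.4). In replicate 2 the numbers were 119 (43.1%, 37.2 to 49.2) on X and 104 (31.0%, 26.0 to 36.2) on the autosomes. Both replicates met the same 68 X genes (24.6%, 19.7 to 30.2) and the same 52 autosomal genes (15.5%, 11.8 to 19.8). The intervals of X and the autosomes overlapped in replicate 1, were apart in replicate 2 and overlapped slightly for both replicates together. No test of the difference was made. Regions also covered more of X (14.9% in replicate 1 and 15.5% in replicate 2) than of the autosomes (12.9% and 13.8%). Over all 6021 X genes the share met in both replicates was 21.1% and over the protein-coding ones 36.0%, but tRNA genes are shorter, with a median of 72 bp, against 279 bp for all X genes and 2507.5 bp for the coding ones. The 24.6% is therefore not directly comparable with the share of X genes in general. For other short X genes, with medians of 21 to 142 bp, the shares met in both replicates were lower. For microRNA genes it was 9.59% (interval up to 18.8) and for snoRNA genes 12.1% (up to 28.2). For piRNA genes it was 4.32% (up to 8.7) and for tRNA pseudogenes 3.45% (up to 17.8). Of these, only the snoRNA interval overlapped that of X tRNA genes, and no test was made. Among single autosomes I came closest to the 24.6% of X, with 13 of 66 tRNA genes (19.7%, 10.9 to 31.3). V was lowest with 9 of 78 (11.5%, 5.41 to 20.8). In replicate 1 alone chromosomes I (43.9%) and III (43.8%) were level with X, and the distance between X and the autosomes came from II, IV and V.

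**Figure D2:**
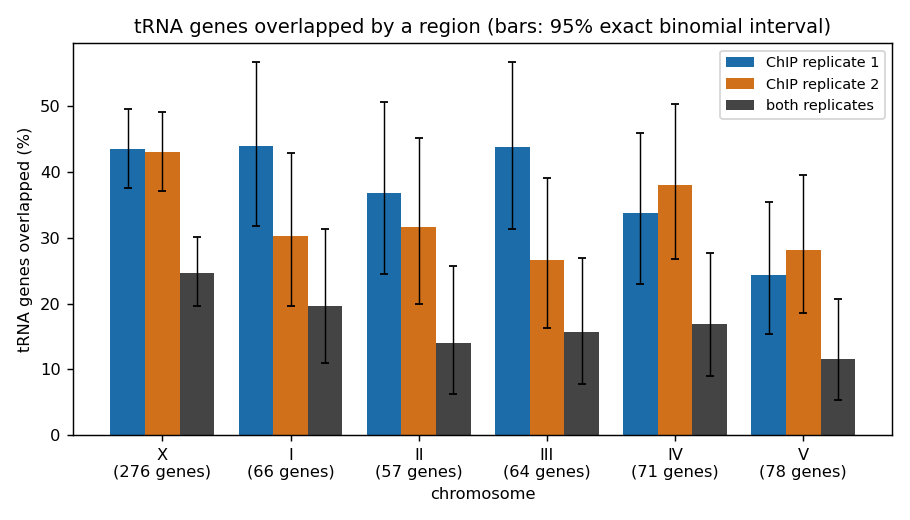
Percent of the tRNA genes of each nuclear chromosome (horizontal axis, with the number of genes) that a region of ChIP replicate 1, of ChIP replicate 2 or of both overlapped by 1 bp or more (vertical axis). Error bars are 95% exact binomial intervals, and the interval of X for both replicates, 19.7 to 30.2, overlaps that of each single autosome.

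Among X regions, those at tRNA genes ranked higher than the rest in both lists. In replicate 1, 38 of 126 (30.2%, interval 22.3 to 39.0) were in the strongest 10% of the list, against 508 of 4874 elsewhere on X (10.4%). In replicate 2, 48 of 123 (39.0%, 30.4 to 48.2) were in the strongest 10%, against 597 of 5687 elsewhere on X (10.5%). On the autosomes the shares at tRNA genes were 26.7% (19.4 to 35.0) in replicate 1 and 20.2% (13.1 to 28.9) in replicate 2. The intervals of X and the autosomes were apart in replicate 2 and overlapped in replicate 1. For other short genes on X the shares were as follows, with no test against tRNA genes. Of the 73 X microRNA genes, each replicate met 15 (20.5%, interval 12 to 31.6), and both replicates met the same 7. Of 33 X snoRNA genes, replicate 1 met 7 (21.2%, 8.98 to 38.9) and replicate 2 met 10 (30.3%, 15.6 to 48.7), intervals that overlap those of X tRNA genes. On the autosomes replicate 1 met 37.7% of 313 snoRNA genes and both replicates met 19.5%, level with or above the autosomal tRNA genes. Replicate 2 met 27.5% of them (22.6 to 32.8), below its 31.0% of autosomal tRNA genes (26.0 to 36.2), with overlapping intervals. Of 162 X piRNA genes, replicate 1 met 25 (15.4%, 10.2 to 21.9) and replicate 2 met 39 (24.1%, 17.7 to 31.4). Of 29 tRNA pseudogenes on X, replicate 1 met 1 and replicate 2 met 3. The combined list met 12 of the 276 X tRNA genes (4.35%, 2.27 to 7.47), and on the autosomes it met 6 of 126 snRNA genes (4.76%, 1.77 to 10.1).

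Most combined X regions lay beside protein-coding genes and not inside them. The midpoint was inside a coding gene for 10 of 51 (19.6%, interval 9.82 to 33.1), where all combined regions gave 21.3% and the autosomal ones 32 of 146 (21.9%, 15.5 to 29.5). Coding genes span 54.4% of X and 63.6% of the autosomes. Of the other X regions, 16 were within 500 bp of a coding gene, 12 between 500 bp and 1 kb, 5 between 1 and 2 kb and 8 farther away. Moved by 500 bp to the left, 20 of the 51 midpoints (39.2%) fell inside a gene, and moved to the right, 19 (37.3%). Within 1 kb of a coding gene were 38 of 51 X regions (74.5%, 60.4 to 85.7), against 125 of 146 autosomal ones (85.6%, 78.9 to 90.9). The gene table gives no strand, so the 5' end of a gene cannot be told from its 3' end.

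The full replicate lists on X held more regions inside genes, with 2350 of 5000 (47.0%, interval 45.6 to 48.4) in replicate 1 and 2464 of 5810 (42.4%, 41.1 to 43.7) in replicate 2. On the autosomes these shares were 58.0% and 54.0%. The share fell toward the top of each list. In the strongest 10% of replicate 1, 203 of 546 X regions (37.2%, 33.1 to 41.4) were inside a gene, against 932 of 1940 autosomal ones (48.0%, 45.8 to 50.3). In the strongest 10% of replicate 2 it was 215 of 645 on X (33.3%, 29.7 to 37.1) and 1011 of 2333 on the autosomes (43.3%, 41.3 to 45.4). Among the first 51 X regions by rank of each replicate, 12 were inside a gene in either list. In replicate 1 these 51 were taken by entry number from 85 X regions of equal, highest score. Stronger entries thus lay outside genes more often on X and on the autosomes alike.

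**Figure D3:**
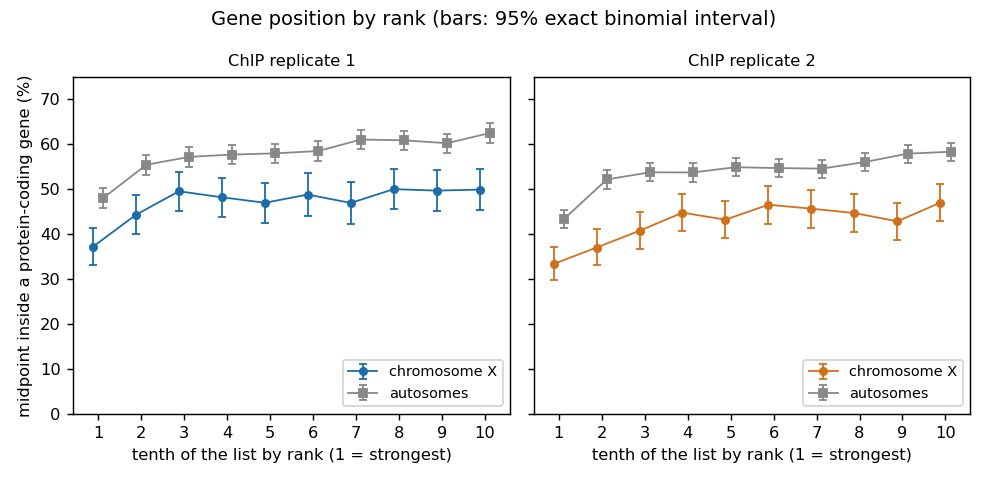
Percent of regions with the midpoint inside a protein-coding gene (vertical axis) in each 10% of the list by rank (horizontal axis, 1 is the strongest), for chromosome X and for the autosomes, in ChIP replicate 1 on the left and ChIP replicate 2 on the right. Error bars are 95% exact binomial intervals, and the strongest 10% is lowest in both lists, with 37.2% and 33.3% on X.

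Of the 51 combined X regions, 33 kept 1 nearest coding gene within 1 kb and are named by it. The first in rank order, from 14525644 to 14525956, lay beside nspc-17 of the nematode-specific peptide family. Its rank was 15 in replicate 1 and 21 in replicate 2. The second named region, from 5841021 to 5841584, lay beside puf-9, a Pumilio-family RNA-binding protein that acts in larval developmental timing, and ranked 32 and 16 in replicates 1 and 2. Regions beside F55G7.5 (from 11937239 to 11937802), T27A8.7 (from 16056227 to 16056790) and F19H6.6 (from 12362861 to 12363424) ranked 38, 44 and 66 in replicate 1 and 34, 27 and 53 in replicate 2. All 5 carried the highest score of the combined list, 2.37, and of both replicate lists, 2.86 and 2.17. The next named region, from 14818683 to 14819246, lay beside epn-1, which encodes the endocytic adaptor epsin, with ranks 90 and 62. The region from 3035828 to 3036391 at the M02F4 tRNA pair was also beside cnnm-3, of the CNNM family of magnesium transport proteins. A region inside mom-1, from 6296243 to 6296806, ranked 131 and 51. mom-1 encodes the Porcupine acyltransferase, which modifies Wnt proteins for secretion.

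Several named genes encode transcription regulators. The region from 15707281 to 15707844 lay beside nhr-48 and that from 4531960 to 4532523 beside nhr-35, both nuclear hormone receptors like NHR-12. At nhr-48 the score was 1.93 at rank 669 in replicate 1 and 1.30 at rank 169 in replicate 2. At nhr-35 it was 0.145 at rank 11792 in replicate 1 and 2.17 at rank 64 in replicate 2, so the region beside nhr-35 ranked high in replicate 2 alone. The region from 6743690 to 6744253, beside the MAD-like bHLH factor mdl-1, ranked 181 and 207, and that from 1454306 to 1454869, beside the C/EBP-type bZIP factor cebp-1, ranked 467 and 280. Beside bet-2, a bromodomain protein of the BET family, the region from 10568345 to 10568908 ranked 35 in replicate 1 (score 2.86) and 6391 in replicate 2 (score 0.118). The mdl-1 and cebp-1 regions were of like rank in both replicates, while that at bet-2 ranked high in replicate 1 alone.

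Others encode signalling, stress and structural proteins. A region inside kin-20, a casein kinase of the Doubletime type that acts in developmental timing, covered 15275170 to 15275733. Its score was 2.86 at rank 42 in replicate 1 and 0.142 at rank 4885 in replicate 2. A region inside aak-2, a catalytic subunit of the energy sensor AMP-activated kinase, covered 16796696 to 16797259, with ranks 111 and 1044. Beside hsp-3, an Hsp70 chaperone of the endoplasmic reticulum, the region from 6091818 to 6092381 ranked 82 and 1602. These 3 regions ranked higher in replicate 1. Beside ins-39, which encodes an insulin-like peptide, the region from 1344766 to 1345329 ranked 1200 and 145, higher in replicate 2. Beside ftt-2, a 14-3-3 protein, the region from 11605642 to 11606205 ranked 348 and 273, and beside syd-2, the liprin that organises synapses, that from 10555635 to 10556198 ranked 307 and 513. A region from 9743264 to 9743827 inside him-4, which encodes the extracellular matrix protein hemicentin, is the one at F15G9.t1 and F15G9.t2. The region beside spc-1, which encodes alpha spectrin, covered 3127553 to 3128116, ranked 13102 in replicate 1 and met no region of replicate 2. The other named genes were hrg-11.4, sulp-3, pks-1, lgc-40, sor-3, F25E2.2, Y41G9A.17, ZC506.1, C14A11.9, ZK470.2, F09A5.3 and C33A11.2.

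The remaining 18 regions had no coding gene that met this rule. Some of them were among the strongest. The region from 11093763 to 11094326 ranked 36 in replicate 1 and 7 in replicate 2, and that from 9465709 to 9465949 ranked 80 and 14. Neither had a coding gene within 1 kb. The same held for the regions from 4208956 to 4209519, with ranks 87 and 29, and from 16681823 to 16682386, with ranks 96 and 44. The regions from 14312290 to 14312853 and from 14312502 to 14313065 overlap each other and met the same entries, with best ranks of 46 in replicate 1 and 396 in replicate 2.

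Gene groups were counted by the number of members on X with a combined region within 1 kb of the gene, beside 44 of all 2730 protein-coding X genes (1.61%). Of all 6021 X genes, coding or not, 88 had such a region (1.46%). Of 27 nuclear receptor genes 2 had one, nhr-35 and nhr-48. Of 72 microRNA genes with a mir symbol or the name let-7, 3 had one, mir-54, mir-55 and mir-56, all at the same region from 13145065 to 13145628, which ranked 27 in replicate 1 and 1287 in replicate 2. Of 37 genes for neuropeptides and insulin-like peptides 1 had one, ins-39, and of 4 heat shock genes 1, hsp-3. Among tRNA genes it was 13 of 276 (4.71%). None was found within 1 kb of 5 listed timing genes (lin-14, let-7, daf-12, hbl-1 and mir-84), of the 6 X signal and dosage genes (sex-1, fox-1, ceh-39, xol-1, sdc-1 and sdc-2), of 18 ceh homeobox genes, 28 collagen genes, 5 vitellogenin genes, 2 ribosomal protein genes, 2 lipid enzyme genes or 12 detoxification genes. The timing list does not hold puf-9 and kin-20, which have a combined region. Both replicates met the span of 3 of its 5 genes, beside 36.0% of coding X genes. The timing genes are longer, with a median of 5614 bp against 2507.5 bp for the coding ones, and include the microRNA genes let-7 and mir-84. These 2 shares are therefore not directly comparable. Both replicates also met 15 of 27 nuclear receptor genes (55.6%), with a median length of 4093 bp, and 2 of 2 lipid enzyme genes. They met 6 of 18 ceh genes, 4 of 12 detoxification genes, 1 of 4 heat shock genes and 6 of 28 collagen genes. Of the X signal and dosage genes they met 1 of 6, of the neuropeptide group 4 of 37 and of the microRNA genes 7 of 72. They met 0 of 5 vitellogenin and 0 of 2 ribosomal protein genes. With so few members in a group, 1 or 2 regions decide each count, and none was tested.

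The combined X regions were spread over the length of the chromosome. The first started at 353093 and the last ended at 16797259, leaving 353 kb of X before the first and 921 kb after the last. The median distance between neighbouring midpoints was 285 kb, 17 of 50 distances were under 100 kb and 2 were under 10 kb. The longest, 1292 kb, lay between the regions ending at 6744253 and starting at 8036112. In 20 equal bins of 0.886 Mb the combined list had from 0 to 5 regions, replicate 1 from 176 to 295 and replicate 2 from 243 to 342. In the middle 50% of X were 21 of 51 combined regions (41.2%, interval 27.6 to 55.8), 52.6% of the replicate 1 regions and 49.3% of the replicate 2 regions. No part of X longer than 90.3 kb was free of replicate 1 regions (from 55433 to 145771) and none longer than 48.7 kb of replicate 2 regions (from 1737193 to 1785868).

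**Figure D4:**
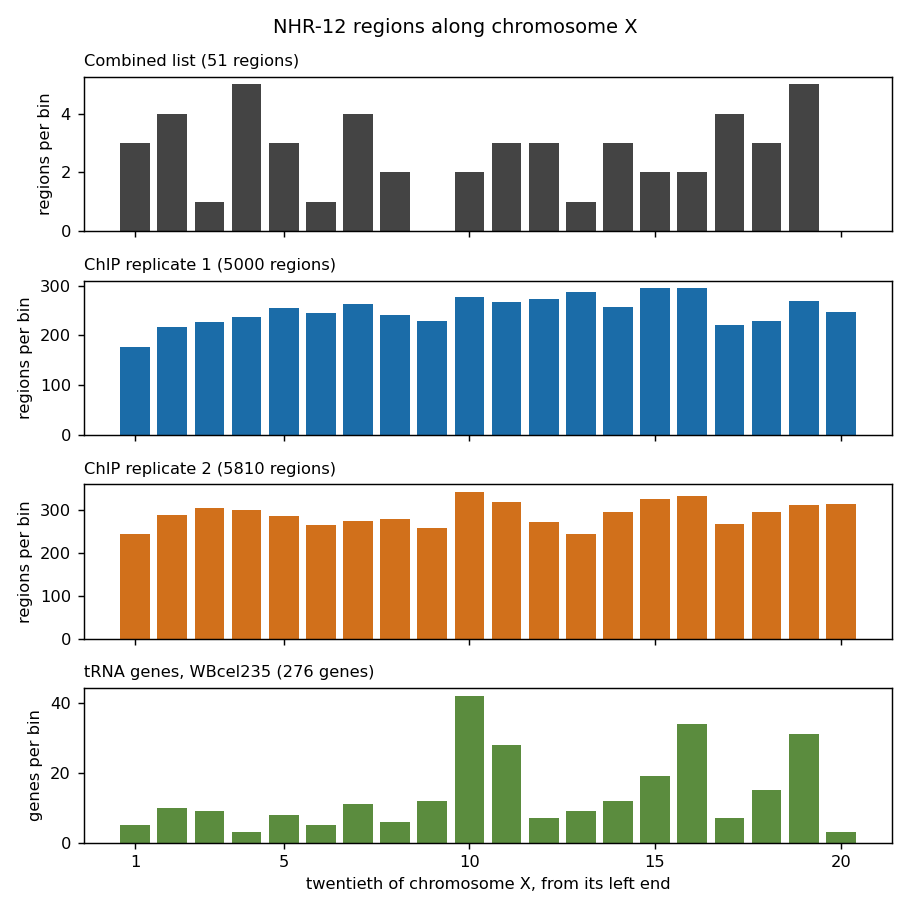
Number of regions, by midpoint, in 20 equal bins along chromosome X (horizontal axis) for the combined list, ChIP replicate 1 and ChIP replicate 2, with the number of tRNA genes of WBcel235 below (vertical axes, per bin of 0.886 Mb). The 51 combined regions are thin and scattered, while replicate counts stay between 176 and 342 per bin.

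Across the 20 bins the counts of the 2 replicates had a Pearson r of 0.49 (Spearman rho 0.43). Replicate 1 had an r of 0.55 with the number of tRNA genes per bin (rho 0.52), and replicate 2 of 0.70 (rho 0.54). With coding genes per bin r was 0.17 and -0.12. The combined list had an r of -0.10 with replicate 1 and 0.07 with replicate 2. With the number of tRNA genes per bin its r was only 0.09 (rho 0.05). Bins of 1 chromosome share the library and the mappable sequence, so these values only describe the 20 bins.

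Density and agreement between the replicates on X were above those of the autosomes together, and single autosomes were above X in several of the measures. X held 25.9% of the combined regions on 17.7% of the nuclear length, and 19.8% of the 197 strongest regions of replicate 2 alone. X had 2.88 combined regions per Mb, against 1.77 on the autosomes, with chromosome III at 2.98 and I at 2.66. Replicate 1 had 282 regions per Mb on X, against 243 on the autosomes, and replicate 2 had 328 on X, against 293. Chromosome IV was denser than X in replicate 2, with 357. Of the X regions of replicate 1, 2340 of 5000 (46.8%, interval 45.4 to 48.2) overlapped replicate 2, against 43.4% (42.7 to 44.1) on the autosomes and 44.1% over all nuclear chromosomes. Of those of replicate 2, 2283 of 5810 (39.3%, 38.0 to 40.6) overlapped replicate 1, against 35.4% (34.8 to 36.0) on the autosomes and 36.2% over all. X also had more of its length covered by the other list (15.5% by replicate 2 and 14.9% by replicate 1, against 13.8% and 12.9% on the autosomes), and its part in the overlap was not tested. Among single autosomes IV was higher than X in replicate 1, with 50.1%. In the strongest 10% of the lists, 63.0% (58.8 to 67.1) of X regions of replicate 1 and 52.2% (48.3 to 56.2) of those of replicate 2 were shared, against 58.2% (56.0 to 60.4) and 49.2% (47.1 to 51.2) on the autosomes. In the weakest 10% the shares on X were 43.2% and 32.1%.

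Nearly all combined X regions were found in both replicates, 50 of 51, where all combined regions gave 94.9% and the autosomal ones 137 of 146. The combined list was made from these replicates, so this is no independent support. Their ranks differed widely between the replicates. The best rank was 15 in replicate 1 and 7 in replicate 2, the median was 139 and 161.5, and the lowest placed was 13102 and 6391. A region ranked at least 10 times lower in replicate 1 than in replicate 2 in 5 cases, which include nhr-35. It ranked at least 10 times lower in replicate 2 in 6 cases, which include kin-20, bet-2, hsp-3 and the mir-54 region. These 6 all had the highest score in replicate 1, shared by 344 nuclear regions. Their exact rank there follows the number in the region's name, so the count of 6 depends in part on that order. Of the first 51 X regions by rank of each replicate, 35 (replicate 1) and 34 (replicate 2) met a combined region. Another 13 in each met the other replicate's list and no combined region. The last 3 in replicate 1 and 4 in replicate 2 met neither. The first of these in replicate 1 ran from 10765919 to 10766518 at rank 45, and in replicate 2 from 4969105 to 4969620 at rank 179. The highest score was shared by 85 X regions in replicate 1 and 18 in replicate 2, and the order among them follows the number in the region's name. The 51 of replicate 1 are thus a part of 85 regions of equal score, and their counts depend on that order.

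**Figure D5:**
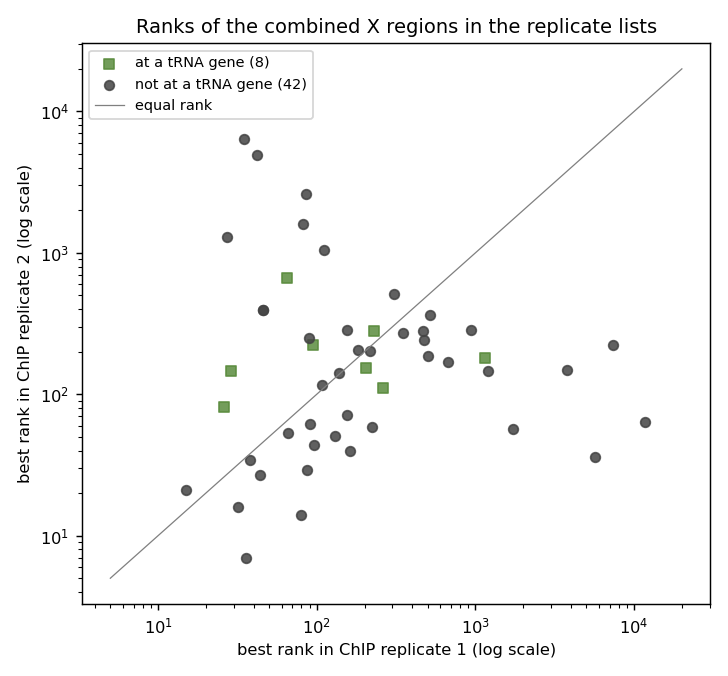
Best rank of each combined X region in ChIP replicate 1 (horizontal axis) and ChIP replicate 2 (vertical axis), both on log scales, for the 50 regions found in both lists, with 8 at tRNA genes drawn as squares. The points scatter on both sides of the line of equal rank, from 15 to 11792 in replicate 1 and from 7 to 6391 in replicate 2.

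The X entries were of fixed width, with 5000 of 5000 at 600 bp in replicate 1, 5809 of 5810 at 516 bp in replicate 2 and 48 of 51 at 564 bp in the combined list. Some of them lie on top of each other: 2266 X entries of replicate 1 (45.3%) and 2068 of replicate 2 (35.6%) overlapped another entry of the same list. Merged, they made 3800 and 4734 loci, with a median space of 2562 bp in replicate 1 and 1926 bp in replicate 2. The widest locus was 1798 bp in replicate 1, from 3969277 to 3971074, and 1557 bp in replicate 2, from 1149770 to 1151326, and each held 4 entries.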

How the data were processed

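The authors deposited region lists in GFF3 with start, end and a score per region, on build WormBase WS220 per the file headers. The source column reads spp_via_IDR, after the peak caller SPP and the irreproducible discovery rate. For the aligner, tool versions, thresholds, the scale of the deposited score and the role of the inputs, the sources used here give nothing. Scores served only to rank regions within a list, with ties ordered by entry number or, in the combined list, by mean rank in the replicates. Overlap was 1 bp or more. Intervals are 95% exact binomial (Clopper-Pearson), limits for a count of 0 use 3 counts, and no test between samples was possible with 1 list per replicate. Chromosome lengths are the largest region ends. Genes came from the RefSeq table of assembly WBcel235, used for names and neighbourhood only. That table has no strand, so the planned distance to gene starts was replaced by distance to the gene's span, and the rule for naming took the nearest coding gene within 1 kb that a move of 200 bp left unchanged. Promoters and motifs were not analysed here. Values were computed in Python 3.11.15 with pandas 2.3.3, numpy 2.4.6 and scipy 1.17.1, and plotted with matplotlib 3.10.9. Overlap counts were identical to bedtools 2.31.1 in 4 comparisons and were tested on simulated data. Members, lists and comparisons were chosen with earlier results of these data known.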

Additional observations from a re-analysis of the deposited data

How the results depend on the processing

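Of 43 alternatives over 12 results, 23 stayed within the interval of the reported value (within 1.5 times for counts and distances). The comparisons with tRNA genes and with the spans of coding genes, and their alternatives, were chosen after seeing the data. In lists of the first 197 nuclear regions by rank of 1 replicate, the X share was 19.8% to 23.4%, its middle share 41.0% to 50.0% and its median gap 293 to 399 kb. For replicate 1 these 197 were taken by entry number among 344 nuclear regions of equal, highest score, so its values depend on that order. X regions at a tRNA gene were then 5 to 8 (8 without replicate 2, 5 without replicate 1), beside 1 autosomal region of 151 without replicate 2 and 0 of 158 without replicate 1. The share within 1 kb of a coding gene was 67.4% to 69.2% and that inside one 17.9% to 23.9%. Merging overlapping entries gave 214 and 267 X regions per Mb in replicates 1 and 2, and the stronger 50% of each list 149 and 169, which follows from fewer entries. With midpoints within 100 bp the overlap on X was 16.0% of replicate 1 and 13.8% of replicate 2, with at least 50% of the region covered 30.6% and 28.2%, and in the stronger 50% of both lists 33.6% and 27.9%. Regions at tRNA genes numbered 4 with midpoints within 100 bp, 0 with regions moved by -500 bp and 3 by +500 bp, and 7 and 9 with moves of -200 and +200 bp. X tRNA genes met in both replicates were 17.4% in the stronger 50% of both lists, and 30.8% with genes within 1 kb counted as 1 locus. Within 500 bp of a coding gene were 51%, and inside one 39.2% and 37.3% with moves of -500 and +500 bp. Where no number of entries or distance explains a change, the cause was not tested. No paired analysis was possible because regions of the inputs, the other group with replicate numbers, were not analysed here. The planned share near gene starts was not run. Depth is unknown, and its part in these values was not tested.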
